A study of Mus musculus with 10 samples.

Results

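The cells described here are the melanocytic cells of the inner ear, the melanocytes and the intermediate cells of the stria vascularis, in single-cell libraries of cochlear and vestibular tissue. A barcode was kept with at least 200 genes, at least 1000 unique molecular identifiers (UMIs, 1 per captured transcript) and less than 25% mitochondrial UMIs. A kept cell was taken as melanocytic where it held a UMI in at least 3 of the 5 genes Dct, Tyr, Pmel, Mlana and Tyrp1 and in fewer than 3 of the 6 hair cell (HC) genes Myo6, Myo7a, Pou4f3, Tmc1, Kncn and Gfi1. This chose 161 of 17696 kept cells (0.910%). They comprised 85 of 7272 cochlear cells (1.17%, 95% exact binomial interval 0.935 to 1.44) and 76 of 10424 vestibular cells (0.729%, 0.575 to 0.912). The study examined how HCs of the cochlea and the vestibule change from young to old mice, and the cells outside the HCs came along with the dissected sensory epithelia. All libraries were of wild-type CBA/J mice of 22 months with no treatment other than ageing, and 7 to 8 mice were pooled in each. The paper states that mice of both sexes were used. Of the 5 libraries deposited per organ, replicate 2 held the cells of replicate 1 again and was left out, so that the groups were 4 cochlear and 4 vestibular libraries (replicates 1, 3, 4 and 5). Young animals were not analysed here, and none of the values below is a change with age.

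Melanocytes reach the inner ear from the neural crest. In the cochlea they settle in the stria vascularis as intermediate cells, between the marginal cells that face the endolymph and the basal cells, and the potassium channel KCNJ10 in their membrane is known to set up the endocochlear potential. In the vestibular organs melanocytes lie under the dark cells, which secrete potassium, and in other connective tissue. Pigment is made in melanosomes, organelles related to lysosomes, by tyrosinase (Tyr), dopachrome tautomerase (Dct) and tyrosinase-related protein 1 (Tyrp1) on fibrils of the Pmel protein, and the transcription factor MITF drives these genes through a short E-box motif with the core CATGTG. Levels below are counts per 1000000 UMIs (CPM) of the summed melanocytic cells of a library. Because the 3′ chemistry counts a transcript once whatever its length, CPM of different genes can be set side by side.

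The promoters of the 3 pigment enzymes are shown because Dct and Tyr marked the cells of both organs while Tyrp1 was read in those of the vestibule alone, and that of Kcnj13 because this potassium channel differed between the organs. Each sequence runs from 250 bases before to 50 bases after the start of the gene, 5′ to 3′ on the strand of the gene, as RefSeq gives it on GRCm38.p6, at chr14:118052197-118052496 (minus strand), chr7:87493463-87493762 (minus strand), chr4:80833963-80834262 (plus strand) and chr1:87394680-87394979 (minus strand). Capitals mark CATGTG on either strand (CACATG where it lies on the other strand) and the longer TCATGTGCT, which holds it.

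Dct: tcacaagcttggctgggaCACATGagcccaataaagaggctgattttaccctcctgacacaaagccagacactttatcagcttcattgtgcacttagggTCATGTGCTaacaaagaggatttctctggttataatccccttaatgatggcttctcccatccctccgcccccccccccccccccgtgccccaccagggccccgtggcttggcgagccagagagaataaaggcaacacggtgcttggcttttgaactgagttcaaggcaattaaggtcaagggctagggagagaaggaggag
Tyr: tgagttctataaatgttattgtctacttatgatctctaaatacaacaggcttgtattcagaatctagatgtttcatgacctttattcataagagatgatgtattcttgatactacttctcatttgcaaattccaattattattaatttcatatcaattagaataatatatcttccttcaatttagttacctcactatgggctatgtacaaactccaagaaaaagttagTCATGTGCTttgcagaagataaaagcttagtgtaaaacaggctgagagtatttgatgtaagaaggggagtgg
Tyrp1: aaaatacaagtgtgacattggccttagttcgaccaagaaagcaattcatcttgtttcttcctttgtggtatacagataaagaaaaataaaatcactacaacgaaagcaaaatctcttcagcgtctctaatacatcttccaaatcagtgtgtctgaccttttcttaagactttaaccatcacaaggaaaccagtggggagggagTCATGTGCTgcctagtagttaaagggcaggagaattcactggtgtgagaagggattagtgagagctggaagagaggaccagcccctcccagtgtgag
Kcnj13: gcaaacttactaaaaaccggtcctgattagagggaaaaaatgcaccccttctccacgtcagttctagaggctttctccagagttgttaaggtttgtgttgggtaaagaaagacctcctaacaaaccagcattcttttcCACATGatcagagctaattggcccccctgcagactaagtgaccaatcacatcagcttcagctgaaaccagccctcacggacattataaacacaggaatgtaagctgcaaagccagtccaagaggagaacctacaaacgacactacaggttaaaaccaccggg

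All 3 pigment enzyme promoters held TCATGTGCT, which stood in 134 of 32851 mouse promoters of this length (0.408%). Its first base lay 22 bases before the start of Tyr, 47 before that of Tyrp1 and 151 before that of Dct. It was in 0 of 15 genes of melanosome structure and transport, 0 of 10 melanocyte regulators and 0 of 11 ion transport genes. MITF is already known to drive the pigment enzymes through the core of this motif, so their matches are a description and no test. The shorter CATGTG, on either strand, was in 14.2% of all promoters and is therefore common. It was found in 4 of 15 genes of melanosome structure and transport, 1 of 10 melanocyte regulators and 2 of 11 ion transport genes with a promoter in the table, in which 39 of the 52 genes of these 4 lists matched by symbol. A match of letters is a description of the sequence, and binding was not measured.

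The cells were spread unevenly over the libraries, and replicate 3 of each organ supplied most of them. The cells of vestibule replicate 3 also stood apart from those of the other vestibular libraries in several genes, so that the results that turn on it are given with and without it. That library was singled out by its values, so the fits without it show its weight and are no separate support. Cochlea replicate 3 held 80 of the 85 cochlear cells, 1.58% of its 5070 kept cells, and cochlea replicate 5 held the other 5, 0.534% of 936. Cochlea replicates 1 and 4 held 0 of 571 and 0 of 695 kept cells, which allows shares of up to 0.525% and 0.432% at 3 counts of the total, or 0.644% and 0.529% by the upper end of the exact two-sided 95% interval. Every vestibular library held some. Vestibule replicates 1, 3, 4 and 5 held 5 of 867 (0.577%), 49 of 5438 (0.901%), 13 of 2448 (0.531%) and 9 of 1671 (0.539%). The shares of the organs overlapped, with a mean of 0.528% ± 0.744 (SD, n = 4) in the cochlea and 0.637% ± 0.177 (SD, n = 4) in the vestibule, and their difference did not pass an exact two-sided permutation test over libraries (p = 0.914, where 0.0286 is the smallest p that 4 against 4 can give). A share also depends on how much of the stria and of the tissue under the dark cells a dissection left in the tube, which was not measured. Intervals and limits cover counting error only.

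**Figure D1:**
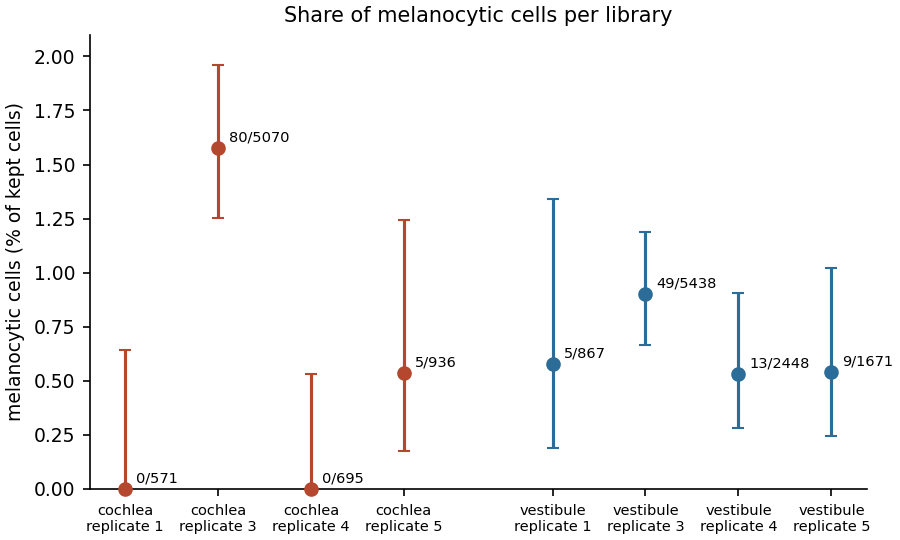
Share of kept cells that were melanocytic in each of the 8 libraries, with the exact 95% binomial interval as bar and the number of cells beside each point. Cochlea replicate 3 sits at 1.58%, cochlea replicates 1 and 4 at 0%, and the 4 vestibular libraries between 0.531% and 0.901%.

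The total UMIs summed over the melanocytic cells were 390537 and 27087 in cochlea replicates 3 and 5 and 24578, 203297, 56465 and 32502 in vestibule replicates 1, 3, 4 and 5, so that the levels of cochlea replicate 5 and vestibule replicate 1 rest on the fewest transcripts. In vestibule replicate 1 a single cell of 16220 UMIs held 66.0% of them, so that its levels are largely those of 1 cell. The deepest cell of cochlea replicate 5 held 37.7% of the UMIs there. A cochlear melanocytic cell held a median of 3883 UMIs and 1494 genes, and a vestibular one 2234 UMIs and 1033 genes, against 2168 and 2222 UMIs in the other kept cells of the organs. The median share of mitochondrial UMIs was 14.4% and 18.9% in the cells of the cochlear libraries and 3.28%, 8.38%, 2.05% and 4.00% in those of the vestibular libraries. The mitochondrial shares of the organs did not overlap, and the exact two-sided permutation test of these medians gave p = 0.0667, the smallest that 2 libraries against 4 can give, so that this design cannot reach 0.05. For the median UMIs the exact permutation test gave p = 0.200. The limit on mitochondrial UMIs removed many cochlear candidates. Of the 85 cochlear and 47 vestibular barcodes that held at least 3 of the 5 genes but were not kept, 76 and 12 were at or over 25%. The HC rule removed 1 cell in each organ. No melanocytic barcode was kept in a second library used here.

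The 5 marker genes did not mark the organs alike. All 85 cochlear cells held Dct, Tyr and Mlana, 1 of them held a single Pmel UMI and none held Tyrp1, so that 3 of the 5 markers carried the rule there. In the vestibule Dct was in 76 of 76 cells, Mlana in 68, Tyr in 64, Pmel in 43 and Tyrp1 in 13. As these genes chose the cells, their levels are given as a description. Dct stood at 20510.2 and 35848 CPM in cochlea replicates 3 and 5 and at 39710.3, 27698, 24829.5 and 29567 CPM in vestibule replicates 1, 3, 4 and 5. The other kept cells of these same libraries held 87.7 and 86.2 CPM. The groups overlapped for Dct, as they did for Tyr at 927 and 1034 CPM in the cochlea and 1709, 1136, 726 and 923 CPM in the vestibule. Mlana, which encodes a melanosome membrane protein, stood at 1232 and 665 CPM in the cochlea and 2075, 1107, 726 and 1446 CPM in the vestibule. Pmel, in contrast, summed to 1 UMI over all cochlear cells and to 202 over the vestibular ones and stood at 366, 595, 514 and 1323 CPM in the vestibular libraries. Tyrp1 summed to 0 and 36 UMIs, and stood at 81.4, 108, 142 and 123 CPM in the vestibular libraries. Over all 4 cochlear libraries, 41 of the 7187 other kept cells held 96 Tyrp1 UMIs. On GENCODE M21 (GRCm38) Dct lies on chromosome 14, 118012790 to 118052244, Tyr on chromosome 7, 87424771 to 87493512, Pmel on chromosome 10, 128704195 to 128720238, Tyrp1 on chromosome 4, 80834123 to 80851719 and Mlana on chromosome 19, 29697824 to 29708634.

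Cells just inside and just outside the rule differed in depth of Dct. The 84 cochlear and 47 vestibular cells with exactly 3 markers held a median of 94.5 and 55 Dct UMIs. The 64 and 92 cells with 2 markers, left out, held a median of 9 in each organ, and 25 and 24 of them held at least 20. Cells rich in Dct thus lay on both sides of the limit.

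Among the other genes of melanosome structure and transport, Gpnmb, a glycoprotein of melanosomes and lysosomes, was the most abundant. It stood at 2330.1 and 1735 CPM in the cochlear and 5859, 3365, 3985 and 4399.7 CPM in the vestibular libraries. All vestibular libraries lay above both cochlear ones, but the difference did not pass the test across genes (log2 fold change, cochlea minus vestibule, -1.18 ± 0.44 SE, adjusted p = 0.150). Slc45a2, a melanosome transporter, was present in 75 of 85 cochlear and 54 of 76 vestibular cells, and in 56.5% and 55.3% once each cell was thinned to 1000 UMIs, against 0.640% and 0.474% of the other cells unthinned. Its levels of 839.9 and 997 CPM and 1221, 644, 514 and 646 CPM overlapped. Syngr1 stood at 681 and 665 CPM in the cochlea and 895, 812, 974 and 462 CPM in the vestibule, and Myo5a, the motor that carries melanosomes, at 220.2 and 185 CPM in the cochlea and 203, 359, 319 and 462 CPM in the vestibule. The melanophilin gene Mlph, which links that motor to melanosomes, stood at 51.2 and 36.9 CPM in the cochlea and 285, 98.4, 301 and 92.3 CPM in the vestibule (adjusted p = 0.206). Of the 20 genes of this list, 18 had a UMI in cochlear and 19 in vestibular melanocytic cells, and the transporter Oca2 had none in either. Pmel and Mlana aside, 5 had enough counts for the test of the organs, and 0 passed it, with 2 at an unadjusted p under 0.05 and 0 by DESeq2, where 1.24% of all 724 genes tested did. Their median log2 fold change was -0.78, against -0.09 over all genes tested. Of all 724 genes, 22.0% stood at an unadjusted p under 0.05 and 29 passed by DESeq2. The same shares apply to the lists below.

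The transcription factors that define melanocytes were read at low levels in cells of both organs. Mitf stood at 207 and 222 CPM in the cochlea and 569.6, 271, 248 and 369 CPM in the vestibule, and Sox10, a neural crest factor also found in glia and supporting cells, at 256 and 148 CPM in the cochlea and 529, 319.7, 213 and 431 CPM in the vestibule, neither past the test (adjusted p = 0.315 and 0.353). Pax3 was in 24 of 85 cochlear and 28 of 76 vestibular cells but in 0.139% and 0.0870% of the other cells. Its levels were 89.6 and 36.9 CPM in the cochlea and 366, 192, 195 and 215 CPM in the vestibule, too few counts for the test. Ednrb, the endothelin receptor that melanoblasts need, stood at 192 and 258 CPM in the cochlea and 610.3, 639, 584 and 1015 CPM in the vestibule, with no overlap of the libraries, and missed the threshold (log2 fold change -1.84 ± 0.47 SE, adjusted p = 0.0720). Met, the receptor of hepatocyte growth factor, was the most abundant regulator in the cochlear cells, at 773 and 479.9 CPM there and 773, 644, 584 and 831 CPM in the vestibule. Kit, the receptor through which melanoblasts survive, had 0 UMIs in all 161 cells, which allows up to 3.53% of cochlear and 3.95% of vestibular cells with a UMI, whereas 4.97% and 13.4% of the other kept cells held one. Lef1 was at 0 as well. Of the 13 regulators 5 were tested, 0 passed (2 at an unadjusted p under 0.05 and, by DESeq2, Ednrb with adjusted p = 0.0362), and their median log2 fold change was -0.73. Without vestibule replicate 3 the value of Ednrb was -1.99 ± 0.50 SE, adjusted p = 0.0275.

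Of the 3 inward rectifier potassium channels of the ion transport list, Kcnj10 and Kcnj13 were more frequent in these cells than in the rest of the libraries and Kcnj16 was not. Kcnj10 was in 80 of 85 cochlear and 58 of 76 vestibular cells, and in 78.8% and 60.5% after thinning, against 15.1% and 5.34% of the other cells, which include supporting cells and glia that express it. Its level was 1439 and 2215 CPM in the cochlea and 2482, 1436, 779 and 831 CPM in the vestibule. The organs overlapped for Kcnj10 (log2 fold change 0.39 ± 0.40 SE, adjusted p = 0.575). Kcnj13, another inward rectifier of the same family, was lower in the cochlea, at 215 and 73.8 CPM against 1058, 841, 496 and 615 CPM in the vestibule. All vestibular libraries were above both cochlear ones and the difference passed the test (log2 fold change -2.13 ± 0.43 SE, adjusted p = 0.0419). With a lone cochlear library, the log2 fold change of Kcnj13 was -3.30 without cochlea replicate 3 and -1.62 without cochlea replicate 5. Other kept cells of these libraries held 6.07 and 10.7 CPM of Kcnj13. Kcnj16 was in 4 of 85 cochlear and 0 of 76 vestibular melanocytic cells, against 28.2% and 8.204% of the other cells.

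The sodium and chloride transport genes of the list lay the other way, above every vestibular library in both cochlear ones for Slc12a2, Atp1b1 and Car2, without passing the test. Slc12a2, the sodium, potassium and chloride cotransporter NKCC1, stood at 2543 and 2252 CPM in the cochlea and at 81.4, 1422, 124 and 61.5 CPM in the vestibule (log2 fold change 2.24 ± 0.78 SE, adjusted p = 0.132). Vestibule replicate 3 lay far above the other vestibular libraries and below both cochlear ones. The same order held for Atp1b1, a beta subunit of the sodium pump, at 3259.6 and 4467 CPM in the cochlea and 285, 1810.2, 531 and 615 CPM in the vestibule (adjusted p = 0.0720), and for carbonic anhydrase Car2 at 519.8 and 997 CPM in the cochlea and 0, 453, 35.4 and 0 CPM in the vestibule (adjusted p = 0.206). The connexin genes Gjb2 and Gjb6 stood at 443 and 406 and 515 and 738 CPM in the cochlea, with adjusted p of 0.993 and 0.420 between the organs. With vestibule replicate 3 left out, the log2 fold change by edgeR was 4.50 ± 0.45 SE, adjusted p = 8.17e-05 for Slc12a2. It was 2.78 ± 0.46 SE, adjusted p = 0.00190 for Atp1b1 and 5.12 ± 0.82 SE, adjusted p = 0.00147 for Car2. All 3 passed by edgeR without that library and none with it. The fit without it is shown because of its high values of these genes, so these passes are no separate support. By DESeq2 on all libraries Atp1b1 (adjusted p = 0.0111) and Kcnj13 (adjusted p = 0.00817) passed. Of the 16 genes, 11 were tested, 0 was higher in the cochlea and 1, Kcnj13, in the vestibule, where 0.414% and 0.829% of all genes tested were, and the median log2 fold change was 0.51.

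**Figure D2:**
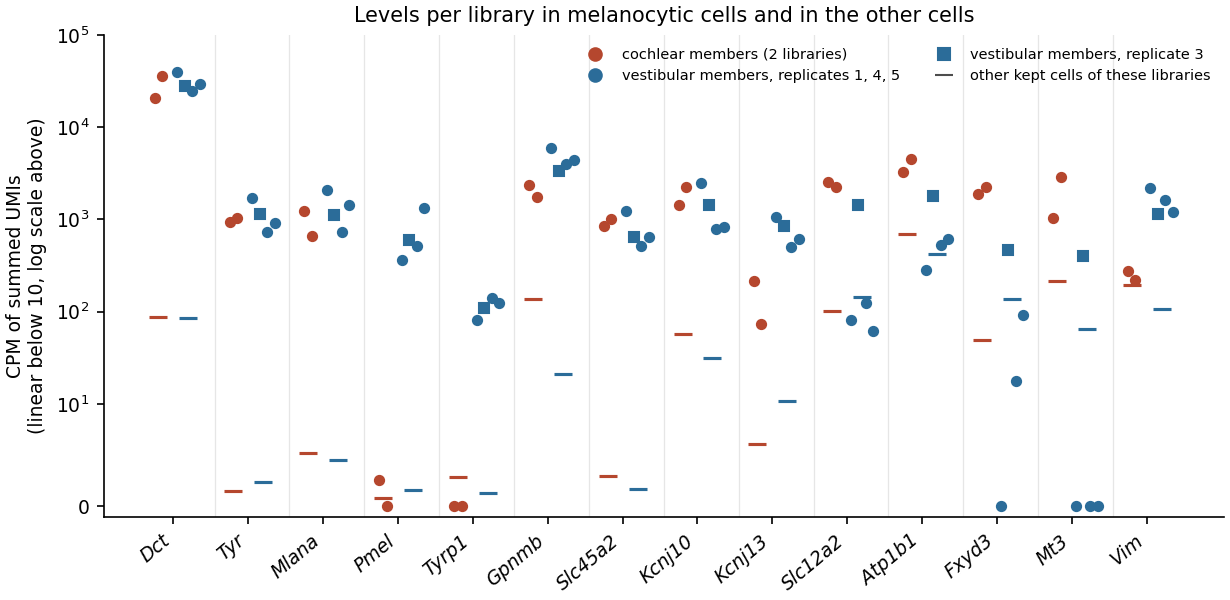
Level (CPM of summed UMIs, linear below 10 and on a log scale above) of 14 genes in the melanocytic cells of each library (points, the square being vestibule replicate 3) and in the other kept cells of the same libraries (dashes). Pmel and Tyrp1 sit at or near 0 in the cochlear libraries alone, while for Slc12a2, Atp1b1, Fxyd3 and Mt3 the square lies between the cochlear and the other vestibular libraries.

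The Slc12a2 UMIs of vestibule replicate 3 were unevenly spread over its cells. As chosen after the values were seen, and with no test, its 49 cells were divided at 3 Slc12a2 UMIs, which by its making gathers that gene and also favours deep cells (median 4484 against 1703 UMIs). The 8 cells with at least 3 held 273 of the 289 Slc12a2 UMIs of the library, 84 of 94 Fxyd3 UMIs, 274 of 368 Atp1b1 UMIs and all 81 Mt3 UMIs. They held 0 of the 121 Pmel UMIs, and 18 of the 234 UMIs of vimentin (Vim). Their median mitochondrial share was 13.8%, close to that of the cochlear cells, against 7.67% in the other 41. In cochlea replicate 3, 60 of 80 cells held at least 3 Slc12a2 UMIs. Fxyd3 stood at 977 CPM in the 8 cells and at 1917 CPM in those 60. No cell among the 27 of vestibule replicates 1, 4 and 5 held more than 2. The 8 cells carried 42.3% of the melanocytic UMIs of the library, and 21.6% of these UMIs were in 1 cell of 43844 UMIs. That cell alone held 204 of the 289 Slc12a2 UMIs, 126 of the Atp1b1, 46 of the Mt3 and 2 of the Fxyd3 UMIs. It also held 32 of the 37 UMIs of Kcne1, a marker of marginal cells, and was the 1 vestibular cell with at least 3 markers of that type. Without it the library stood at 533 CPM of Slc12a2, 1518 of Atp1b1, 219.5 of Mt3 and 577 of Fxyd3, against 1422, 1810.2, 398 and 462 CPM with it. The barcodes of the 8 cells were kept in no other library. Whether such cells were dissected with the vestibular organs or reached the library in another way was not tested.

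**Figure D3:**
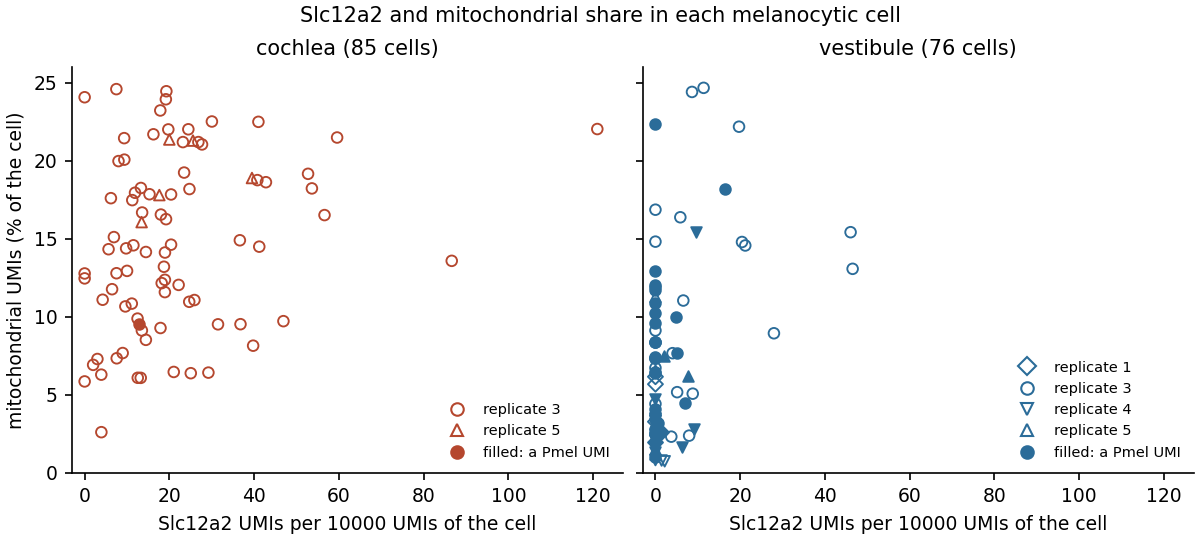
Each point is 1 melanocytic cell, with Slc12a2 UMIs per 10000 UMIs of the cell on the x axis and its mitochondrial share (%) on the y axis, filled where the cell held a Pmel UMI. Most of the 85 cochlear cells lie to the right of 0 and are open, while most vestibular cells lie at or near 0, and those to the right of 20 are all open points of replicate 3.

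Markers of marginal cells, the potassium-secreting neighbours that use Slc12a2 and the sodium pump, were found in the same libraries as high Slc12a2, and their part in these results was not tested. Kcne1, a subunit of the potassium channel of marginal cells, stood at 236 and 148 CPM in the cochlea and 0, 182, 0 and 0 CPM in the vestibule. It was found in 23 of 85 cochlear cells and in 3 of 76 vestibular cells, the latter all of replicate 3. At least 3 marginal cell markers were held by 5 cochlear cells, all of 1 library. These 5 cells held 371 Slc12a2 UMIs (7228 CPM) and 142 Mt3 UMIs. In the 62 cochlear cells with no Kcne1 UMI, Slc12a2 stood at 1717 CPM, Atp1b1 at 4022 CPM and Fxyd3 at 1929 CPM. In the 23 with one they stood at 3479.7, 2527 and 1863 CPM, so that Slc12a2 was higher and Atp1b1 lower beside Kcne1. Mt3 was at 433 CPM in the cells with no Kcne1 UMI and 2019.8 CPM in those with one.

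The test of the organs asked which genes differed between cochlear and vestibular melanocytic cells beyond the spread of the libraries. Libraries with at least 5 of the cells entered, cochlea replicates 3 and 5 against vestibule replicates 1, 3, 4 and 5, and 724 genes besides the 11 of the rule had enough counts. Fxyd3, Ifi27l2a and Cox8b were higher in the cochlea (0.414%), and Ucma, Trf, Vim, Snx1, Kcnj13 and Tuba1a were higher in the vestibule (0.829%), by edgeR's quasi-likelihood test with Benjamini-Hochberg adjustment at 0.05. The libraries of the organs did not overlap for any of these 9, nor for 32.6% of all genes tested.

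Fxyd3, a regulator of the sodium pump that lies on chromosome 7, 31068172 to 31076704, stood at 1874 and 2252 CPM in the cochlea and at 0, 462, 17.7 and 92.3 CPM in the vestibule (log2 fold change 3.34 ± 0.72 SE, adjusted p = 0.0419). Vestibule replicate 3 was again the highest of its organ, and without it the log2 fold change was 5.62, adjusted p = 2.20e-04. By DESeq2 Fxyd3 did not pass (adjusted p = 0.174). Ifi27l2a, an interferon-inducible gene, stood at 4778 and 6202 CPM in the cochlea and 1139, 1756, 230.2 and 431 CPM in the vestibule (log2 fold change 2.59 ± 0.55 SE, adjusted p = 0.0419). Cox8b, a subunit of cytochrome c oxidase, stood at 1349 and 1366 CPM in the cochlea and 325, 580.4, 142 and 154 CPM in the vestibule (log2 fold change 2.02 ± 0.43 SE, adjusted p = 0.0419). Without vestibule replicate 3 the log2 fold changes were 3.19, adjusted p = 0.00147 for Ifi27l2a and 2.67, adjusted p = 0.00147 for Cox8b. In the other kept cells these 3 genes stood at 49.3, 388 and 44.9 CPM in the cochlea.

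On the vestibular side, Vim, an intermediate filament of mesenchymal and neural crest cells on chromosome 2, 13573927 to 13582826, stood at 274 and 222 CPM in the cochlea and at 2197, 1151, 1629 and 1199.9 CPM in the vestibule (log2 fold change -2.63 ± 0.39 SE, adjusted p = 0.00874). Snx1, which sorts endosomal cargo, stood at 128 and 111 CPM in the cochlea and 732, 571, 602 and 369 CPM in the vestibule (-2.24 ± 0.39 SE, adjusted p = 0.0168). The tubulin gene Tuba1a stood at 118 and 111 CPM in the cochlea and 732, 374, 354 and 431 CPM in the vestibule (-1.998 ± 0.42 SE, adjusted p = 0.0419). The calls differed in how the melanocytic cells stood to their surroundings. Vim and Snx1 were higher in the melanocytic cells of the vestibule than in its other cells, which held 108 and 64.0 CPM, whereas Trf and Ucma were lower in them. Trf, which encodes transferrin, stood at 51.2 and 0 CPM in the cochlea and 407, 266, 496 and 523 CPM in the vestibule (log2 fold change -3.25 ± 0.60 SE, adjusted p = 0.0236), and the other vestibular cells held 746 CPM. With cells of at least 2 markers taken in, the value of Trf was -0.72, adjusted p = 0.791, and without cochlea replicate 3, where the cochlea was left with 0 Trf UMIs, the adjusted p was 0.101. The cartilage gene Ucma had 0 UMIs in the cochlear cells and stood at 40.7, 413, 283 and 585 CPM in the vestibular libraries (adjusted p = 0.0168), at least 52.7-fold higher against the floor of 3 counts over the cochlear cells, while the other vestibular cells held 876 CPM. The part of free RNA from these cells in the values of Trf and Ucma was not tested.

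Across all 724 genes, 29 passed by DESeq2, among them 8 of the 9, and 159 stood at an unadjusted p under 0.05. The number of calls moved with each library. Leaving out cochlea replicate 3, cochlea replicate 5 or vestibule replicates 1, 3, 4 or 5 gave 0, 30, 17, 41, 3 and 3 calls in place of 9. With cochlea replicate 3 left out, the 5 cells of replicate 5 stood alone for the cochlea, as the 80 cells of replicate 3 did with replicate 5 left out, and the lone library was assumed to vary like the vestibular ones. Vim and Snx1 kept their call in 5 of these 6 fits, Fxyd3, Ifi27l2a, Cox8b, Trf and Kcnj13 in 3, Tuba1a in 2, and Ucma in 2 of the 5 in which it had enough counts. In every one of the alternatives in which they could be fitted, the 9 genes kept the direction given here.

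**Figure D4:**
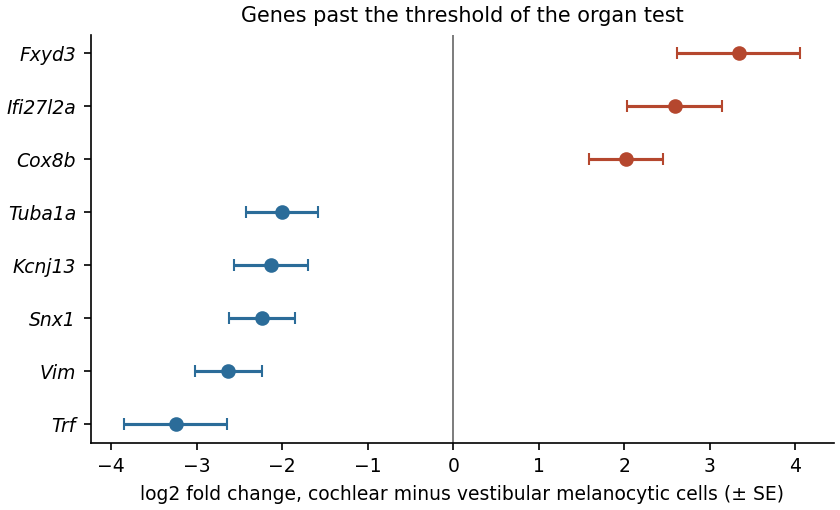
log2 fold change (cochlear minus vestibular melanocytic cells, x axis) with its standard error for 8 of the 9 genes past the threshold, from 2 cochlear and 4 vestibular libraries. Ucma is not drawn because it was at 0 in both cochlear libraries, and 3 genes lie to the right of 0 and 5 to the left.

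The dissected organs differ in their other cells as well, and a second test asked whether the organ difference of a gene among melanocytic cells was unlike that among all other kept cells of the same libraries. Of the 724 genes, 8 leaned more to the cochlea among melanocytic cells (1.10%) and 3 more to the vestibule (0.414%), together 1.52%. Unadjusted, 122 had a p under 0.05, and 46 passed by DESeq2. Towards the cochlea the differences were, among others, those of Fxyd3 (log2 difference 5.30, adjusted p = 0.0138), Ifi27l2a (3.25, 0.0446), the calcium-binding protein gene S100b (2.31, 0.0126) and the kinase gene Dclk1 (2.24, 0.0468). For S100b the difference lay in the other cells rather than in the melanocytic ones. It stood at 1608 and 1661 CPM in cochlear and 1831, 2086, 1364 and 1169 CPM in vestibular melanocytic cells, which overlapped, while the other cells held 350.5 and 1646 CPM. Fxyd3, on the other hand, was at 49.3 and 136 CPM in the other cells of cochlea and vestibule, opposite in order to the melanocytic cells. Towards the vestibule the differences were those of Fez1 (-3.57, 0.0475), which encodes an adaptor of axonal transport, of Vim (-3.35, 0.0446) and of the small heat shock protein gene Cryab (-1.95, 0.0163). The count of 11 became 0, 3 and 3 without cochlea replicate 3, cochlea replicate 5 and vestibule replicate 4, and 31 and 25 without vestibule replicates 3 and 5. Without vestibule replicate 1 it was 11 as well, of which 8 were among the first 11, and Ifi27l2a, Fez1 and Selenop missed the threshold.

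Both ferritin genes were among the abundant transcripts of the melanocytic cells. The ferritin heavy chain gene Fth1 stood at 19317 and 35699.8 CPM in the cochlea and 7405, 10768, 4126 and 5538 CPM in the vestibule, and the light chain gene Ftl1 at 6875 and 8122 CPM in the cochlea and 4679, 4747, 2373 and 2984 CPM in the vestibule. The libraries of the organs did not overlap for either, but neither passed the test (log2 fold change 1.93 ± 0.64 SE and 0.97 ± 0.44 SE, adjusted p = 0.119 and 0.221). Of the 10 iron genes 3 were tested, and Trf alone passed, in the direction of the vestibule, with 3 at an unadjusted p under 0.05 and Fth1 and Trf called by DESeq2. Over all 724 genes tested, 1.24% passed, 22.0% had an unadjusted p under 0.05 and 29 passed by DESeq2. The glutathione transferase gene Gsta4 stood at 5958 and 3433 CPM in the cochlea and 2767, 4265, 1222 and 2738 CPM in the vestibule, the peroxidase gene Gpx4 at 2087 and 2695 CPM in the cochlea and 2441, 1564, 1275 and 1169 CPM in the vestibule, and the metallothionein gene Mt1 at 1444 and 1292 CPM in the cochlea and 3214, 964, 797 and 677 CPM in the vestibule, all 3 with overlap. Mt3 was at 1042 and 2843 CPM in the cochlea and at 0, 398, 0 and 0 CPM in the vestibule (log2 fold change 3.54 ± 0.88 SE, adjusted p = 0.0712). Of the 25 redox genes 12 were tested, 0 passed, with 2 at an unadjusted p under 0.05 and 0 by DESeq2, and their median log2 fold change was 0.34. Without vestibule replicate 3 Mt3 passed, with 0 UMIs left in the vestibular cells.

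Of the lysosomal genes tested, 8 of 9 had a log2 fold change below 0 and none passed. The protease gene Ctsb stood at 1291 and 1772 CPM in the cochlea and 1546, 1692, 2869 and 2831 CPM in the vestibule, the tetraspanin gene Cd63 at 1667 and 997 CPM in the cochlea and 3052, 1938, 2302 and 1538 CPM in the vestibule and the proton pump subunit gene Atp6v0c at 1142 and 517 CPM in the cochlea and 1424, 1072, 655 and 462 CPM in the vestibule. Of the 19 genes 9 were tested, 0 passed, with 0 at an unadjusted p under 0.05 and 0 by DESeq2, and the median log2 fold change was -0.18, against -0.09 over all genes tested. Among secreted factors Ptgds, the prostaglandin D2 synthase, was the highest at 36447 and 17130 CPM in the cochlea and 16397, 22681, 44736 and 40213 CPM in the vestibule. The other vestibular cells held 42198 CPM, within the range of the vestibular libraries, whereas the other cochlear cells held 6587 CPM. Osteopontin (Spp1) stood at 2553 and 1108 CPM in the cochlea and 569.6, 2002, 673 and 2154 CPM in the vestibule and Apoe at 1375 and 332 CPM in the cochlea and 1099, 1894, 2958 and 2461 CPM in the vestibule, both at or below the level of the other cells in the vestibule (9377 and 5134 CPM). Of the 18 secreted factors 7 were tested and 0 passed, with 2 at an unadjusted p under 0.05 and 0 by DESeq2, and the median log2 fold change was -0.46.

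The 4 antigen presentation and inflammation genes tested all had log2 fold changes below 0, the direction of the vestibule, without passing the test. B2m, the light chain of class I molecules, stood at 515 and 369 CPM in the cochlea and 2807, 939.5, 886 and 677 CPM in the vestibule, and H2-K1 at 92.2 and 73.8 CPM in the cochlea and 1139, 309.9, 301 and 185 CPM in the vestibule. Vestibule replicate 1, with 5 cells of which 1 held 66.0% of the UMIs, was the highest for both. None of the 4 tested of the 20 genes passed by edgeR (adjusted p = 0.114 for B2m and 0.0720 for H2-K1), and their median log2 fold change was -1.76. An unadjusted p under 0.05 was found for 3 of them, against 22.0% of all 724 genes tested. H2-K1 and H2-D1 passed by DESeq2 (adjusted p = 0.0244 and 0.0367), where 29 of all 724 did. Without vestibule replicate 3, H2-D1 passed by edgeR (log2 fold change -2.39 ± 0.59 SE, adjusted p = 0.0249). Bst2, an interferon-inducible membrane protein, was at 220.2 and 295 CPM in the cochlea and 2034, 236, 319 and 277 CPM in the vestibule. The 13 mitochondrially encoded genes lay on the other side, with a median log2 fold change of 1.60 and 12 of 13 above 0, and 0 passed. The libraries of the organs did not overlap for 10 of them, against 32.6% of all 724 genes tested. An unadjusted p under 0.05 was found for 10, against 22.0% of all genes. By DESeq2 5 passed, where 29 of all 724 did. Without vestibule replicate 3, 8 of the 13 passed, in a fit in which 41 of 490 genes did. mt-Co1 stood at 25145 and 31306 CPM in the cochlea and 7202, 16552, 3701 and 8184 CPM in the vestibule (adjusted p = 0.210), mt-Co2 at 21665 and 30900.4 CPM in the cochlea and 4842, 13488, 3028 and 4707 CPM in the vestibule (adjusted p = 0.136), and mt-Nd4l at 13479 and 22188 CPM in the cochlea and 1668, 6979.9, 1063 and 3077 CPM in the vestibule (adjusted p = 0.0892). This is the mitochondrial share of the cells seen gene by gene, and vestibule replicate 3 was the highest of its organ for both.

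**Figure D5:**
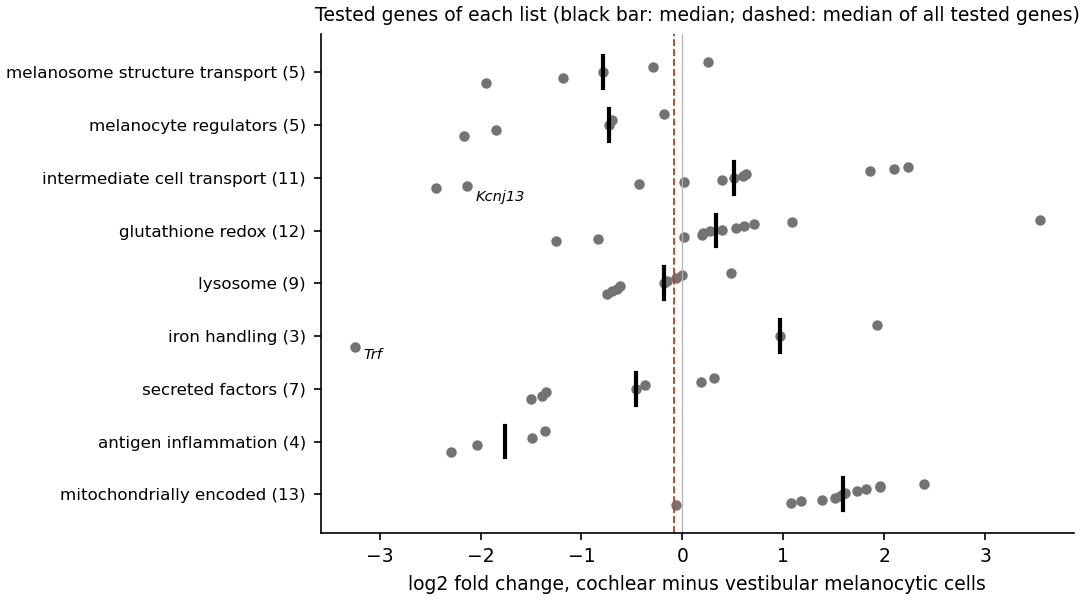
log2 fold change (cochlear minus vestibular melanocytic cells, x axis) of the tested genes of the 9 lists with at least 3, the number tested being in brackets. Black bars are list medians, the dashed line is the median of all genes tested (-0.09), and the 2 genes past the threshold, Kcnj13 and Trf, are named.

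Besides the genes of the rule, a small set of transcripts led the ratio of melanocytic to other cells in each organ, given as a description since a cluster of cells chosen by expression has to differ from the rest. With 282 and 385 times the level of the other cells, Slc45a2 led in the cochlea and followed Pax3 (498 times) in the vestibule, the rule genes aside. Hpse, which encodes heparanase, stood at 1693 and 2141 CPM in the cochlea and 1994, 1235, 1045 and 1108 CPM in the vestibule, 177 and 141 times the other cells. Cdh19, a cadherin of the neural crest lineage, stood at 71.1 and 87.5 times, and the synaptotagmin gene Syt4 at 43.0 and 302 times. Syt4 was at 860.4 and 1108 CPM in the cochlea and at 2604, 2922, 2727 and 1261 CPM in the vestibule, with no overlap and no pass (adjusted p = 0.0854). Tspan10 (202 times), the collagen gene Col5a3 (132), Lgi4 (72.9), Tinagl1 (47.8) and the adrenomedullin gene Adm (44.96) completed the cochlear list of 15 with Gm2115 (105), and Gpnmb (179 times, 16.7 in the cochlea), Slc24a2 (116 times, 1.80 in the cochlea) and Gm2115 (147) the vestibular one. Gsta1, Gsta2 and Gm3776 were on these lists too (92.6, 119 and 98.1 times in the cochlea), but they are near-identical copies between which reads may have been divided, and their separate levels are uncertain.

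Most marker lists of other cell types were lower in the melanocytic cells than in the other cells, with Kcne1, given above, and the glial list as exceptions. For these lists the other cells are those of all 4 libraries of an organ. Glial markers summed to 946 and 1120.4 CPM in cochlear and vestibular melanocytic cells against 422 and 189 CPM in the other cells, with 12 and 3 cells holding at least 3 of the 7. The T or NK cell list had 0 UMIs in both organs, and of the 6 hair cell genes of the rule Myo6 gave 175 of 179.6 CPM in cochlear and 177 of 215 CPM in vestibular cells. The mural list summed to 4.79 and 0 CPM. Macrophage markers summed to 26.3 and 9.47 CPM against 626 and 336 CPM in the other cells. The endothelial, neuron, B cell, granulocyte, basal cell and supporting cell lists were also below the other cells, at 23.9 and 6.31, 105 and 41.0, 26.3 and 37.9, 11.97 and 119.9, 165 and 110.5 and 459.7 and 413 CPM in cochlear and vestibular cells, the last through Gjb2, which intermediate cells share. The myelin genes Mag and Cldn19 were at 0 in the melanocytic cells. The blood list varied most between libraries, as haemoglobin and Alas2 summed to 4809 and 36.9 CPM in the cochlear and 40.7, 290.2, 57965 and 129992 CPM in the vestibular libraries. Fibrocyte markers summed to 160.4 and 1679 CPM, below the 2482 and 7313 CPM of the other cells. The most abundant of them was Dcn in the cochlear and Coch in the vestibular melanocytic cells. With mitochondrial and haemoglobin genes left out of the fit the organ test gave 26 calls, and without the cells that carried at least 3 markers of another type 46, each with all 9 genes named above among them.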

How the data were processed

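Droplet single-cell libraries (10x Genomics 3′ v3.1) were made from microdissected cochlear and vestibular sensory epithelia after collagenase treatment. The authors deposited filtered matrices of raw UMI counts, 32285 genes by barcode, aligned to mm10. The submitters' processing notes name Cell Ranger 6.1.2, whereas the file headers give 5.0.1 for replicates 1 and 2. Replicates 1 and 2 of an organ agreed within sampling noise (mean chi-square per gene 0.142 and 0.121) and were counted as 1 sample. Labels do not say whether equally numbered libraries of the organs share mice. Depth per library is in the report; doublets were not removed, and cells with 3 markers of another type were left out in an alternative.

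UMIs were summed over the melanocytic cells of each library with at least 5 of them. Genes passing filterByExpr on these sums were tested with edgeR 4.0.16 in R 4.3.3 (TMM, quasi-likelihood, Benjamini-Hochberg 0.05, no covariate), and the organ by population interaction with library as a block on the same genes, a filter set after testing on simulated data. Alternatives used DESeq2 1.42.0, other factors, filters, cell rules and left-out libraries. Genes named were those called, the 3 most abundant of a list, the 15 with the highest ratio to other cells at 100 CPM or more, and the 5 largest interactions in each direction; others were named after their values were seen. The rule, markers and lists were chosen with earlier results of these data known. When 200 genes of simulated counts were shifted by a log2 of 2, 82.5% of 183 tested were recovered in the organ test and 83.3% of 180 in the interaction. The simulation gave every gene the same dispersion and shifted far more genes than passed in the data. Its shares check the fit and do not estimate how many real differences were found. Some genes of these lists are not reported here. Gene positions are from GENCODE M21 and promoters from RefSeq, both GRCm38.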

Additional observations from a re-analysis of the deposited data

Results flagged for a closer look

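Among the 4 libraries of an organ, a library was singled out where its gap to the nearest other one took up most of the range (Dixon's test at 95%). Chance does this in about 1 in 20 groups of normally spread values. That rate cannot be carried over to sums of few cells, and a gene read in 1 library alone always meets the test. In the vestibule the share and the levels of 73 genes were examined by Dixon's test, and 10 genes met it. Other genes given above, such as Mt3 and Car2, also had vestibule replicate 3 far above the rest and are not in this list. Vestibule replicate 3 had the highest share of melanocytic cells, 0.901%, and stood apart for Slc12a2 at 1422 CPM, Dclk1 at 713 CPM, Adm at 197 CPM and Tinagl1 at 182 CPM. It was also alone with Mcm2, at 4.92 CPM, which is 1 UMI. Vestibule replicate 1, with 5 cells of which 1 held 66.0% of the UMIs, stood apart for B2m at 2807 CPM, Bst2 at 2034 CPM, H2-K1 at 1139 CPM and Pax3 at 366 CPM. Vestibule replicate 5, with 9 cells, stood apart for Ednrb at 1015 CPM.

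The organ difference among melanocytic cells was unlike that among the other cells, by the interaction test, for the following genes. On the log2 scale, cochlea minus vestibule and melanocytic minus other cells, it was 5.30 for Fxyd3, 3.25 for Ifi27l2a, 2.31 for S100b, 2.24 for Dclk1, 1.83 for Tmem176b, 1.56 for Chchd10 and 1.47 for Selenop. It was -3.57 for Fez1, -3.35 for Vim and -1.95 for Cryab. With genes filtered on the sums of melanocytic and of other cells, Tmem176b, Chchd10, Selenop and Cryab missed the threshold of the interaction test. Their values there were 1.95, 1.70, 1.63 and -1.79 (adjusted p = 0.166, 0.302, 0.328 and 0.220).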

How the results depend on the processing

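The difference in share between the organs (-0.109 percentage points, cochlea minus vestibule) was -0.243 with at least 4 markers, which restates the marker genes since 84 of 85 cochlear cells held Dct, Tyr and Mlana alone, -0.432 with at least 2 markers (exact permutation p = 0.571), and 0.0615 with at least 2000 UMIs (exact permutation p = 0.914). Leaving out 1 library gave -0.459 to 0.0672. The count of 9 genes that differed between the organs was 29 by DESeq2, 47 with no filter on low counts, 46 without cells carrying 3 markers of another type, 45 with less than 10% mitochondrial UMIs, where 21 cells of cochlea replicate 3 stood alone for the cochlea and 1509 genes were tested, 4 with replicate 2 in place of 1, and 0 with each cell thinned to 1000 UMIs, where 166 genes were tested and 30 had an unadjusted p under 0.05. The other 3 settings were chosen after seeing the data, giving 1 with at least 2 markers, 23 without cells of over 20000 UMIs and 26 without mitochondrial and haemoglobin genes. Leaving out 1 library gave 0 to 41, and the 0 without cochlea replicate 3 had 139 at an unadjusted p under 0.05. The count of 11 in the interaction was 46 by DESeq2, 167 with no filter, 121 with a filter on both sums and 30 without cells of over 20000 UMIs (both chosen after seeing the data), and 0 to 31 with 1 library left out, the 0 having 126 at an unadjusted p under 0.05. Called genes kept their direction under all settings in which they were fitted, in 148 and 141 values of the organ test and interaction, of which 90 and 96 passed. With each cell weighing the same, 60 of 74 levels moved by less than 1 SD. The share of calls higher in the cochlea was 33.3% with TMM and with RLE factors, 44.8% by DESeq2, 66.0% with no filter, 60.9% without cells carrying 3 markers of another type, 77.8% with less than 10% mitochondrial UMIs and 61.0% without vestibule replicate 3. It was 23.5% without vestibule replicate 1, and no call was higher in the cochlea with replicate 2 in place of 1 (0 of 4), without vestibule replicate 4 (0 of 3), without vestibule replicate 5 (0 of 3) or with at least 2 markers (0 of 1), where Fxyd3, Ifi27l2a and Cox8b missed the threshold. With replicate 2 in place of 1 their log2 fold changes were 3.32, 2.57 and 2.00, against 3.34, 2.59 and 2.02, so that it was the calls near the threshold that moved there.

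With the replicate number as a block the organ test called 0 genes and 43 had an unadjusted p under 0.05. Only replicates 3 and 5 are shared by both organs, and the deviations of the equally numbered libraries correlated at -0.332 and -0.284. With 2 cochlear libraries such deviations mirror each other, so that these values cannot settle whether the numbers pair the samples.

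At least 4 markers left 1 cochlear cell and at least 20 cells per library left 1 library per organ, so that neither gave an organ test. The cochlea rests on 2 libraries, 1 of them with 5 cells, and 724 of 32285 genes had the depth to be tested.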

Other observations

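Genes of adhesion, growth arrest, the cell cycle and the early stress response were mostly too low to test. The integrin gene Itgb1 stood at 284 and 443 CPM in the cochlea and 569.6, 295, 638 and 462 CPM in the vestibule, and Ncam1 at 215 and 148 CPM in the cochlea and 244, 290.2, 266 and 431 CPM in the vestibule. Both of these genes, the only ones of the 17 of adhesion and matrix that were tested, missed the threshold (edgeR, adjusted p = 0.452 and 0.351). The transcription factor gene Jund, the only one of 17 early stress genes tested, was at 458 and 406 CPM in the cochlea and 569.6, 625, 815 and 246 CPM in the vestibule (adjusted p = 0.513).

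Cdkn1a, which encodes the cell cycle inhibitor p21, was at 58.9 and 0 CPM in the cochlea and 40.7, 349, 336 and 92.3 CPM in the vestibule (adjusted p = 0.139), and Cdkn2a, Cdkn2b, Il6 and Cxcl1 of the same list had 0 UMIs in the cells of both organs. Ccnd1, a cyclin of the G1 phase, was at 20.5 and 0 CPM in the cochlea and 163, 413, 319 and 0 CPM in the vestibule (adjusted p = 0.0787 by edgeR and 0.0111 by DESeq2), present in 3 of the 4 vestibular libraries and 1 of the 2 cochlear ones. Of the other cell cycle genes, Pcna, which also serves DNA repair, was in 18 of 85 cochlear and 13 of 76 vestibular cells, at 48.7 and 36.9 CPM in the cochlea and 40.7, 44.3, 70.8 and 92.3 CPM in the vestibule. Mcm2 had 2 and 1 UMIs, and Ccna2, Birc5 and Ube2c had 0 UMIs in the cochlear and 1 UMI each in the vestibular cells. Mki67, Top2a, Ccnb1 and Cdk1 had 0 UMIs in all 161 cells.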
